A study of Mus musculus with 6 samples.

Results

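The genes described here encode enzymes that act on aldehydes, alcohols, esters and epoxides, in kidneys of wild-type mice and of mice that lack Selenbp1, the selenium-binding protein. The members were all probes whose gene name on the array begins with Aldh, Adh, Fmo, Ces (numbers 1 to 5) or Ephx followed by a digit. This rule gave 91 of the 56605 probes and 57 of the 37325 genes. The aldehyde dehydrogenases had 40 probes for 21 genes, the alcohol dehydrogenases 9 probes for 6 genes, the flavin-containing monooxygenases 15 probes for 7 genes, the carboxylesterases 22 probes for 19 genes and the epoxide hydrolases 5 probes for 4 genes. All 6 arrays carried RNA of the left kidney of male mice aged 8 weeks. The mice were fasted for 20 h, and each array held 1 kidney. The 3 WT arrays (numbers 2, 3 and 4) came from C57BL/6J mice and the 3 Selenbp1-KO arrays (numbers 1, 2 and 3) from knockout mice labelled with the same strain. According to the methods the WT mice came from a commercial breeder and littermates are not mentioned, so that genotype and the origin of the mice cannot be told apart.

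These families clear reactive and foreign compounds and also handle the body's own metabolites. Aldehyde dehydrogenases oxidise aldehydes to acids, among them retinaldehyde, fatty aldehydes and semialdehydes of amino acid breakdown, whereas alcohol dehydrogenases interconvert alcohols and aldehydes. Flavin-containing monooxygenases oxygenate nitrogen and sulfur atoms, carboxylesterases cleave esters of drugs and lipids, and epoxide hydrolases open epoxides, including those made from arachidonic acid. In the kidney much of this machinery lies in the proximal tubule.

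The reading of single carboxylesterases depends on how far a probe separates them, since the Ces genes lie together on chromosome 8 and resemble each other. The array probes are 60 bases long, and for 54 of the 56 probes used to represent a gene the longest run of bases also found in the probe of another gene was between 13 and 16. Ces2b and Ces2c were the exception with a run of 24 bases. This compares probes only with each other and only by unbroken runs. How well a probe matches the transcripts of related genes was not examined, so the runs do not settle how far it separates them. The stretches of 30 bases below come from the probe sequences in the scanner files and run 5′ to 3′, with capitals for the bases shared between the named pair. The first pair is Ces2b (mm9, chr8:107362421-107362480, plus strand) and Ces2c (mm9, chr8:107378258-107378317, plus strand).
Ces2b: attTGTCACCTCAGTCTTTGAGCTTTCctg
Ces2c: atcTGTCACCTCAGTCTTTGAGCTTTCatg
The second pair, Ces1b (mm9, chr8:95581314-95584247, minus strand) and Ces1c (mm9, chr8:95624607-95628058, minus strand), shared a longest run of 14 bases. These 2 probes had 6 stretches of 12 bases in common, overlapping stretches counted separately. Some of these lie within the run shown and the others beyond it. The longest run therefore understates how alike they are, and signal passing between them was not tested.
Ces1b: catggCGATGAAATCTTCTctgtatttggg
Ces1c: CGATGAAATCTTCTttgtattcggggctcc
The probes of the 2 genes that passed the threshold are shown with capitals for their longest run shared with the probe of any other gene. This was 13 bases for Aldh1b1 (mm9, chr4:45816960-45817019, plus strand, shared with Cd3d) and 14 bases for Aldh3b3 (mm9, chr19:3969853-3969912, plus strand, shared with BC048575).
Aldh1b1: agtgttacaagaagtgTCAACCAATAAAGt
Aldh3b3: cctatagtCCCCGTAGGCAGCAgctgctaa

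Signals are given as log2 of the processed intensity relative to the 75th percentile of the same array, so that 0 stands for that percentile. This percentile lay between 477 and 751 intensity units, 51.8% to 55.5% of spots were well above background by the scanner's own flag, and no spot was saturated. Selenbp1 itself was at 7.07, 7.02 and 7.02 in WT and at 4.13, 3.98 and 4.10 in Selenbp1-KO arrays, which matches the labels. The kidney was recognisable from its markers, with all 12 genes of the proximal tubule list well above background on every array and a median difference of 0.0068 between the genotypes. Other lists differed more. Of the fibroblast markers 5 of 7 passed the unadjusted threshold and were higher in Selenbp1-KO (median difference 0.73), and so did 4 of 5 red blood cell markers (0.86) and 3 of 5 macrophage markers (0.36). The mesothelium list had a median of 0.48, but its 1 gene past the threshold, Lrrn4, was not well above background on any array. The 6 fat markers had a median difference of 0.90 with none past the threshold. The summed fibroblast signal, in multiples of the 75th percentile, ranged from 19.6 to 25.9 in WT and from 32.0 to 41.6 in Selenbp1-KO, whereas the summed proximal tubule signal ranged from 1160 to 1438 and from 1332 to 1352. The median difference was 0.063 for the loop of Henle and distal tubule (1 of 5 past the threshold, Pvalb), -0.017 for the collecting duct, -0.014 for the glomerulus, 0.019 for the endothelium and 0.076 for the liver, with no other gene of these lists past the threshold. Of the adrenal markers, 3 of 6 for the cortex and 1 of 3 for the medulla were well above background on all arrays of a genotype, with differences from 0.034 to 0.24 and of -0.085, respectively, and none passed. In whole kidney RNA, fewer cells of a type and less RNA per cell cannot be told apart.

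The enzymes differed little between the genotypes. Of 56 member genes tested, each by its brightest probe, 2 had an unadjusted p below 0.05 in the limma fit, namely Aldh1b1 and Aldh3b3, and both were higher in Selenbp1-KO. This was 3.57% of the members, whereas 8.00% of all 37028 genes passed the same threshold, 6.87% with a higher and 1.13% with a lower signal in Selenbp1-KO. No member had a limma adjusted p below 0.279. By probes, 4 of 90 passed (4.44%, against 7.98% of all probes tested), since second probes of Aldh1l1 and Aldh1l2 were lower in Selenbp1-KO. For 4 member genes (7.14%) the values of the genotypes stood apart without overlap, as they did for 14.1% of all genes. Of all genes called 85.8% were higher in Selenbp1-KO, and 57.6% after quantile normalization, under which 8 member genes passed, 2 of them higher and 6 lower. The share of members called under that scaling was 14.3%, above the 9.10% of all genes.

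Of the 56 genes, 42 carried the well-above-background flag on all 3 arrays of WT, of Selenbp1-KO or of both, and both called genes belonged to these (4.76%, against 5.79% of all genes measured as well). Their median difference between Selenbp1-KO and WT was -0.014, with 19 genes above and 23 below 0, and the median over all genes measured as well was 0.016. For 20 of the 42 genes the difference was smaller than 0.1 on the log2 scale in either direction. The precision was sufficient to bound most of them, because the 95% interval of the difference lay within a 2-fold change in either direction for 38 genes and within 0.5 on the log2 scale for 22. The 4 genes whose interval reached beyond a 2-fold change were Aldh1a3, Aldh3b2, Ces1h and Ces3a.

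**Figure D1:**
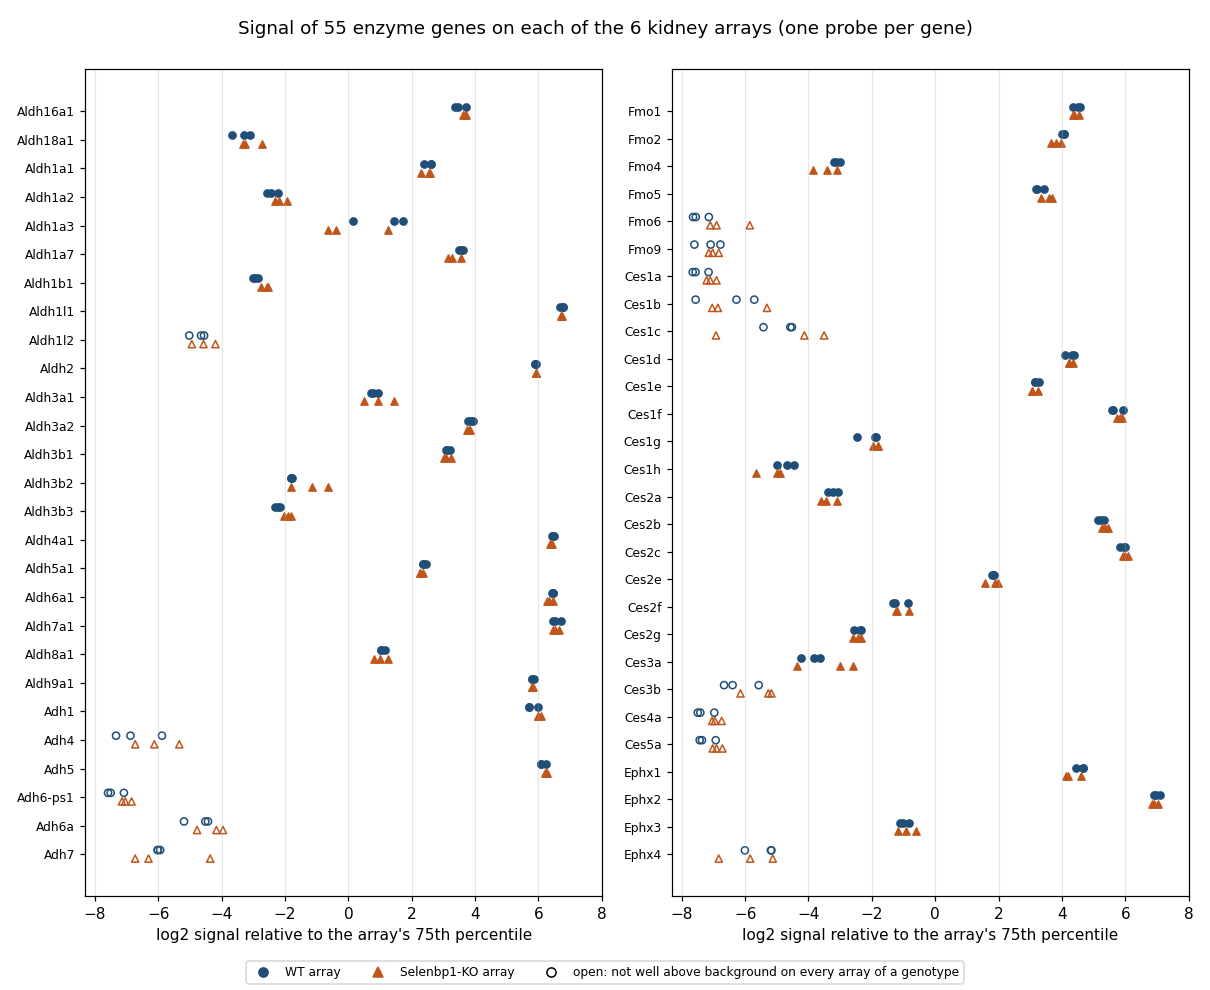
Each point is the log2 signal of 1 of 55 genes on 1 array, relative to the 75th percentile of that array, for the 3 WT arrays (circles) and the 3 Selenbp1-KO arrays (triangles), with open symbols for the 14 genes not well above background on every array of a genotype. The points of both genotypes lie on top of each other for most filled genes, whereas Aldh1a3, Aldh3b2 and Ces3a spread widely between arrays.

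Aldh1b1, a mitochondrial enzyme that oxidises acetaldehyde and other short aldehydes, was at -2.85, -2.96 and -3.01 in WT and at -2.55, -2.75 and -2.56 in Selenbp1-KO arrays. All 3 Selenbp1-KO values were above all WT values. The difference was 0.32 ± 0.11 (SE, n = 3 per genotype), a 1.25-fold higher signal, with an unadjusted limma p of 0.029 and an adjusted p of 0.279. The 95% interval ran from 1.03-fold to 1.50-fold. With slide row as a block, which leaves WT 4 as the only WT array in the same row as the Selenbp1-KO arrays, the difference was 0.39 with an unadjusted p of 0.045 in limma.

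Aldh3b3, a lipid-anchored aldehyde dehydrogenase of mice, was at -2.31, -2.16 and -2.22 in WT and at -1.92, -1.82 and -2.03 in Selenbp1-KO arrays, again without overlap. The difference was 0.31 ± 0.11 (SE, n = 3 per genotype), a 1.24-fold higher signal, with an unadjusted limma p of 0.030 and an adjusted p of 0.279. With the slide row as a block it was 0.29 with an unadjusted p of 0.10 in limma. The second probe of Aldh3b3 was not well above background on any array. The sign of both genes stayed positive across the 19 other processing settings, although settings that change only the probe filter or the variance estimate could not turn it. Aldh1b1 passed the unadjusted threshold in 12 and Aldh3b3 in 13 of the 19 settings. The lowest adjusted p in any of these settings was 0.180 for Aldh1b1 and 0.148 for Aldh3b3.

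The neighbouring gene Aldh3b2, another lipid-anchored relative, behaved differently from array to array. It was at -1.83, -1.79 and -1.81 in WT, and at -1.16, -0.63 and -1.81 in Selenbp1-KO arrays. Only Selenbp1-KO 1 and 2 were above the WT arrays, whereas Selenbp1-KO 3 was level with them. The difference was 0.60 ± 0.29 (SE, n = 3 per genotype) with a limma adjusted p of 0.283, and without Selenbp1-KO 3 it was 0.91 with an unadjusted p below the threshold. The same 2 arrays had the highest signals of the fat marker Adipoq (0.55, 1.05 and -0.62 in WT and 1.66, 2.69 and 0.19 in Selenbp1-KO) and of Upk1b on the mesothelium list (0.69, 0.77 and 0.33 in WT and 1.02, 1.94 and 0.27 in Selenbp1-KO). So did Fabp4, Plin1, Lep and Retn on the fat list and Msln and Upk3b on the mesothelium list. The other genes of these lists did not follow. Cfd was at 5.21 on both WT 3 and Selenbp1-KO 1, and Gpm6a was lowest on Selenbp1-KO 2 (1.85). Lrrn4 was higher on Selenbp1-KO 3 (-6.50) than on Selenbp1-KO 2 (-6.70). The summed fat signal was between 24.5 and 65.0 in WT and between 35.9 and 155 in Selenbp1-KO, and its part in the Aldh3b2 values was not tested. The remaining members of this subfamily differed less between genotypes. Aldh3a1 also varied between arrays, at 0.72, 0.94 and 0.78 in WT and at 0.95, 1.42 and 0.51 in Selenbp1-KO arrays. It too was highest on Selenbp1-KO 2, and its lowest array was Selenbp1-KO 3. Aldh3b1 differed by -0.025, Aldh3a2, the fatty aldehyde dehydrogenase of the endoplasmic reticulum, by -0.058 and Aldh3a1, known as a corneal crystallin, by 0.14, with limma adjusted p from 0.804 to 0.932.

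Among the retinaldehyde dehydrogenases, which make retinoic acid, Aldh1a3 had the widest spread of the well measured members. It was at 1.45, 0.14 and 1.73 in WT and at -0.65, 1.24 and -0.40 in Selenbp1-KO arrays. WT 2, WT 4 and Selenbp1-KO 2 were high and the other arrays low, so that the genotypes overlapped. The difference of -1.04 ± 0.63 (SE, n = 3 per genotype) did not pass the threshold (limma adjusted p 0.404), and its 95% interval ran from -2.58 to 0.50. Without Selenbp1-KO 2 the difference was -1.63 and without WT 3 it was -1.53, both with an unadjusted p below 0.05, and by the mean of all its probes it was -0.36. That mean takes in 1 probe with a substitute background value on all 6 arrays (difference 0.40). It also takes in 1 probe that was well above background on 1 WT array only (-0.45).

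Akr1b3, the aldose reductase that makes sorbitol and is abundant in the inner medulla, was picked for comparison after its values had been seen. It was at 5.93, 4.98 and 5.32 in WT and at 3.80, 5.78 and 3.86 in Selenbp1-KO arrays, low on Selenbp1-KO 1 and 3 as Aldh1a3 was, and highest on WT 2 and Selenbp1-KO 2. The collecting duct water channel Aqp2 was at 4.69, 4.19 and 3.99 and at 3.79, 4.31 and 4.00, respectively, a smaller spread. It was low on WT 4, where Aldh1a3 was highest. The other genes of the collecting duct list did not follow Aldh1a3. Aqp3 was lowest on Selenbp1-KO 2 (4.23) and highest on Selenbp1-KO 3 (4.61), and Scnn1b was also lowest on Selenbp1-KO 2. Slc4a1 and Atp6v1g3 were highest on Selenbp1-KO 1, and Foxi1 was lower on WT 4 (2.25) than on Selenbp1-KO 1 (2.36). Whether the share of medulla differed between the kidneys was not tested. The other Aldh1a genes were steadier. Aldh1a1 differed by -0.061, Aldh1a2 by 0.27 and Aldh1a7, a close relative of Aldh1a1 in rodents, by -0.23, with limma adjusted p from 0.355 to 0.847.

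**Figure D2:**
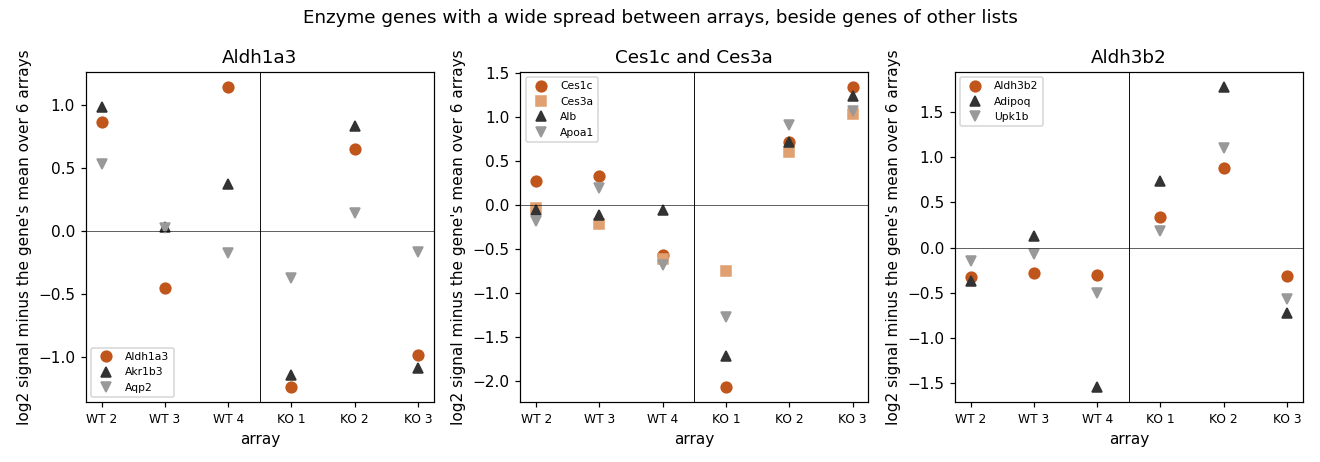
Each panel plots, for the 6 arrays, the log2 signal of enzyme genes (Aldh1a3, Ces1c, Ces3a, Aldh3b2) minus the gene's own mean over the arrays, beside genes of other lists (Akr1b3, Aqp2, Alb, Apoa1, Adipoq, Upk1b). The vertical line parts WT from Selenbp1-KO arrays; Selenbp1-KO 1 and 3 are low for Aldh1a3 and Akr1b3, Selenbp1-KO 1 is low for the Ces genes and Alb, and Selenbp1-KO 2 is the highest array for Aldh3b2 and Adipoq.

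Of all members tested, Aldh2, Aldh9a1 and Aldh4a1 of intermediary metabolism had the narrowest 95% intervals. Aldh2, the main mitochondrial enzyme for acetaldehyde, was at 5.88, 5.90 and 5.93 in WT and at 5.92, 5.92 and 5.91 in Selenbp1-KO arrays. All 6 arrays were nearly equal, with a difference of 0.014 ± 0.090 (SE, n = 3 per genotype) and a 95% interval from -0.21 to 0.23. Its 4 probes did not share a sign (0.014, 0.018, -0.066 and -0.12), and none passed the threshold. Aldh3a2 also had probes of both signs (-0.058, 0.014 and -0.0084 for the 3 well above background).

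Aldh7a1, which acts in lysine breakdown and against osmotic stress, was at 6.47, 6.51 and 6.72 in WT and at 6.51, 6.46 and 6.64 in Selenbp1-KO arrays. The ranges overlapped, with Selenbp1-KO 2 the lowest and WT 4 the highest array, and the difference was -0.026 ± 0.12. Aldh4a1 (proline breakdown) differed by -0.056, Aldh5a1 (succinate semialdehyde) by -0.080, Aldh6a1 (valine breakdown) by -0.094 and Aldh9a1 (carnitine synthesis) by -0.014, and no interval of these 4 genes went beyond -0.34 or 0.21. These differences are small enough for the scaling to decide the call. After quantile normalization Aldh2, Aldh4a1, Aldh5a1, Aldh6a1 and Aldh9a1 were lower in Selenbp1-KO with an unadjusted limma p below 0.05, at differences between -0.19 and -0.098. That scaling moved the median of all genes from 0.13 to 0.0037. Aldh8a1 of tryptophan breakdown differed by -0.054, Aldh18a1 of proline synthesis by 0.25 and Aldh16a1, an atypical member, by 0.16 in the same direction at all 3 of its probes well above background.

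Aldh1l1, the cytosolic formyltetrahydrofolate dehydrogenase, was at 6.78, 6.77 and 6.69 in WT and at 6.70, 6.72 and 6.74 in Selenbp1-KO arrays. The genotypes overlapped (difference -0.026 ± 0.093). A second probe, listed under an Ensembl transcript, was at -0.79, -0.67 and -0.69 in WT and at -0.93, -0.94 and -1.04 in Selenbp1-KO arrays, and all 3 Selenbp1-KO values were below WT. It differed by -0.25 ± 0.099 (SE, n = 3 per genotype) with an unadjusted limma p of 0.041 and an adjusted p of 0.279, so the 2 probes of this gene gave different calls. Aldh1l2, the mitochondrial counterpart, differed by 0.17 at its brightest probe. Another probe of Aldh1l2 differed by -0.74 with an unadjusted limma p of 0.045 and an adjusted p of 0.279, but it was well above background on 2 WT arrays and on no Selenbp1-KO array.

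The alcohol dehydrogenases lie together on chromosome 3, and 2 of the 6 were well above background. Adh1, which oxidises ethanol and retinol, was at 5.70, 5.71 and 5.99 in WT and at 6.09, 5.98 and 5.99 in Selenbp1-KO arrays. WT 4 was level with the Selenbp1-KO arrays and the other WT arrays were lower. The difference was 0.22 ± 0.12 (SE, n = 3 per genotype), with a limma adjusted p of 0.343. Without WT 4 it was 0.32 with an unadjusted p below 0.05, and with the slide row as a block, which sets the Selenbp1-KO arrays against WT 4, it was 0.035. Adh5, the glutathione-dependent formaldehyde dehydrogenase that also reduces nitrosoglutathione, was at 6.09, 6.09 and 6.22 in WT and at 6.20, 6.23 and 6.28 in Selenbp1-KO arrays. The difference of 0.10 ± 0.098 was about the size of its error (limma adjusted p 0.639).

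Of the flavin-containing monooxygenases, Fmo2 had non-overlapping genotypes. It was at 4.08, 4.08 and 4.00 in WT and at 3.98, 3.66 and 3.80 in Selenbp1-KO arrays, where the gap between the nearest arrays of both genotypes was small. The difference was -0.24 ± 0.12 (SE, n = 3 per genotype), with an unadjusted limma p of 0.094 and an adjusted p of 0.303. The 3 probes of Fmo2 well above background were all lower in Selenbp1-KO, with differences from -0.25 to -0.16, but they read the same gene in the same kidneys and none passed the threshold, and the fourth probe was not well above background on any array. Fmo2 passed the unadjusted threshold in 5 of the 19 other settings. Fmo1, the main form of the mouse kidney, was at 4.34, 4.52 and 4.57 in WT and at 4.54, 4.34 and 4.39 in Selenbp1-KO arrays, with a difference of -0.058 ± 0.12 (limma adjusted p 0.841).

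Fmo5, which inserts oxygen into ketones, was at 3.23, 3.19 and 3.44 in WT and at 3.58, 3.68 and 3.35 in Selenbp1-KO arrays. Selenbp1-KO 3 lay within the WT range, and the difference was 0.25 ± 0.14 (limma adjusted p 0.343). A second probe, also well above background on all arrays, was at -3.06, -2.97 and -2.92 in WT and at -2.89, -2.88 and -2.90 in Selenbp1-KO arrays. These values did not overlap, but the difference was smaller, 0.094 ± 0.095 (limma adjusted p 0.656). The brightest probe of Fmo5 is 2.71 Mb from that of Selenbp1 on chromosome 3 (mm9), whereas the Adh probes are 43.1 to 43.4 Mb away. The value of Fmo4 differed by -0.34, with a limma adjusted p of 0.391.

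The carboxylesterases cleave esters and amides in the endoplasmic reticulum, and 12 of the 18 tested were well above background. Ces2c was at 5.83, 5.98 and 5.95 in WT and at 5.98, 5.93 and 6.08 in Selenbp1-KO arrays, a difference of 0.075 ± 0.10 (limma adjusted p 0.752). Ces2b, whose probe shares the run of 24 bases shown above, differed by 0.11 ± 0.11 (limma adjusted p 0.626), and signal passing between the 2 probes was not tested. Ces1f was at 5.59, 5.62 and 5.94 in WT and at 5.89, 5.74 and 5.84 in Selenbp1-KO arrays, with WT 4 again the highest of its genotype and a difference of 0.10 ± 0.13 (limma adjusted p 0.735). The 8 tested genes of the Ces1 group ranged from -0.48 to 0.38 and the 6 of the Ces2 group from -0.17 to 0.11, and none passed the threshold. Ces1d, a triglyceride hydrolase, differed by -0.0093 and Ces1e by -0.077.

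Ces3a and Ces1c, the latter known as the esterase of rodent plasma, followed individual arrays. Ces3a was at -3.65, -3.84 and -4.24 in WT and at -4.37, -3.02 and -2.59 in Selenbp1-KO arrays, and Ces1c was at -4.57, -4.52 and -5.42 and at -6.92, -4.13 and -3.51. Both were highest on Selenbp1-KO 2 and 3 and lowest on Selenbp1-KO 1. Ces1c was not well above background on WT 4 and Selenbp1-KO 1, so that its values there are no measured levels. The differences of 0.58 ± 0.47 and -0.013 ± 0.89 did not pass the threshold (limma adjusted p 0.553 and 0.996). Without Selenbp1-KO 1, Ces3a passed the unadjusted threshold at a difference of 1.11. Ces1c did so too, but with 1 of the 3 WT arrays still below that flag.

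Of the 7 genes on the liver list, 3 were high and low on the same arrays, with Selenbp1-KO 3 and 2 the highest and Selenbp1-KO 1 the lowest. Albumin (Alb) was at 0.87, 0.81 and 0.87 in WT and at -0.80, 1.64 and 2.16 in Selenbp1-KO arrays, and Apoa1 was at -3.58, -3.21 and -4.09 and at -4.68, -2.49 and -2.34, and Ahsg had the same order. The other liver genes did not follow, since Ttr was highest on Selenbp1-KO 1 (3.31) and lowest on Selenbp1-KO 2 (2.62), Serpina1a was highest on WT 2 (6.34), Fgb was lowest on WT 4 (-1.29), and Apoa2 on Selenbp1-KO 2 (3.42) was below WT 3 (3.54). Over the whole list no marker passed the threshold, the summed signal was 94.1 to 103 in WT and 91.1 to 104 in Selenbp1-KO, and its part in the Ces3a and Ces1c values was not tested. Ces1h was well above background on 3 WT and no Selenbp1-KO arrays, but the genotypes overlapped. It was at -5.01, -4.66 and -4.47 in WT and at -5.01, -5.66 and -4.91 in Selenbp1-KO arrays. The difference was -0.48 ± 0.25 (limma adjusted p 0.315), and its interval ran from 0.47-fold to 1.09-fold. The lowest signal well above background was between -5.40 and -4.87 on WT arrays and between -4.95 and -4.63 on Selenbp1-KO arrays. WT 2 lay below all these Selenbp1-KO levels, so the flags alone do not show a lower signal. With each Selenbp1-KO signal raised to its array's level where it was lower, the Selenbp1-KO mean was 1.05-fold below the WT mean.

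Of the epoxide hydrolases, Ephx2, the soluble enzyme that hydrolyses epoxides of arachidonic acid, was at 7.10, 6.90 and 6.95 in WT and at 6.90, 6.84 and 7.03 in Selenbp1-KO arrays. The genotypes overlapped, and the difference was -0.061 ± 0.11 (limma adjusted p 0.828), with a 95% interval from 0.79-fold to 1.16-fold. Ephx1, the microsomal enzyme for foreign epoxides, was at 4.68, 4.44 and 4.66 in WT and at 4.13, 4.60 and 4.19 in Selenbp1-KO arrays. Selenbp1-KO 1 and 3 were below the WT arrays and Selenbp1-KO 2 lay among them, the split also seen for Aldh1a3. The difference was -0.29 ± 0.16 (SE, n = 3 per genotype) with a limma adjusted p of 0.364, and without Selenbp1-KO 2 it was -0.43 with an unadjusted p below 0.05. Ephx3, which acts on epoxides of fatty acids in skin, differed by 0.080 (limma adjusted p 0.859).

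**Figure D3:**
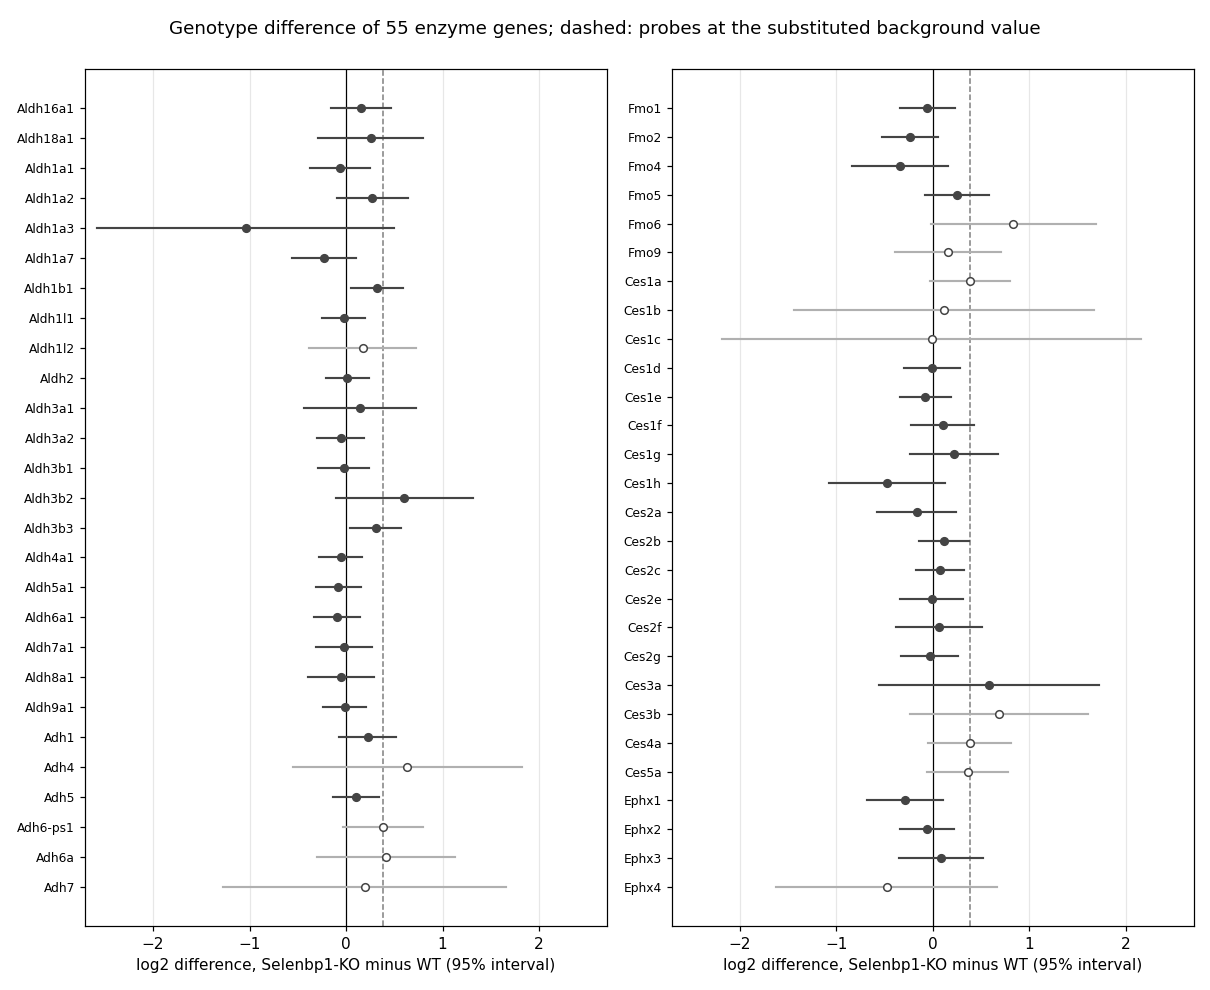
Points show the log2 difference of Selenbp1-KO minus WT for 55 of the 56 enzyme genes tested and bars its 95% interval from limma, with open points and grey bars for genes not well above background on every array of a genotype. Most filled points lie near 0, and several open points (Adh6-ps1, Ces1a, Ces4a, Ces5a) lie on the dashed line at 0.38, the difference of probes that carry the substituted background value.

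The remaining 14 tested genes were not well above background on every array of a genotype, and their values say little about expression. They comprised Adh4, Adh6-ps1, Adh6a, Adh7, Aldh1l2, Fmo6, Fmo9, Ces1a, Ces1b, Ces1c, Ces3b, Ces4a, Ces5a and Ephx4, and Ces2h was not detected on any array and was not tested. The scanner software replaces the signal of a spot that is not above background by a substitute value. Over the 9413 probes with a substitute on all 6 arrays the median was -7.48, -7.57 and -7.05 in WT and -7.01, -6.81 and -7.12 in Selenbp1-KO arrays, a difference of 0.38 on this scale. Adh6-ps1, Ces1a, Ces4a and Ces5a carried the substitute on all arrays and differed by 0.36 to 0.38, the same amount. The 14 genes had a median difference of 0.37, with 12 above and 2 below 0, and after quantile normalization it was 0.0069. Fmo6 was above all WT arrays in each Selenbp1-KO array, but it carried the substitute on 5 of the 6 arrays. All WT arrays were at the substitute level, and only Selenbp1-KO 3 (-5.85) stood clear of it.

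**Figure D4:**
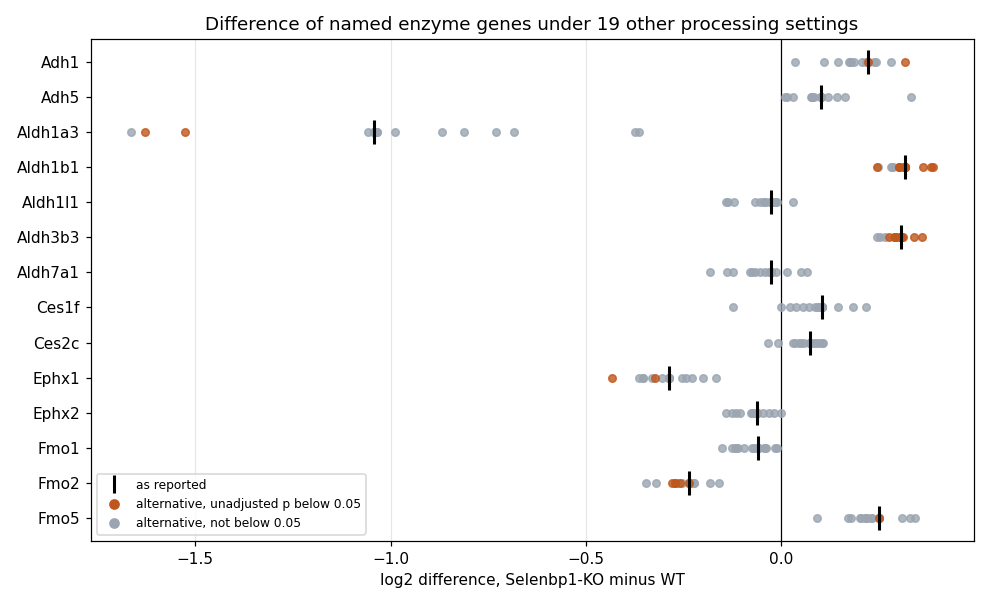
For 14 enzyme genes the log2 difference of Selenbp1-KO minus WT is plotted as reported (black bar) and under 19 other processing settings (points), coloured where the unadjusted p was below 0.05. Aldh1b1 and Aldh3b3 stay right of 0 and Fmo2 and Ephx1 left of 0 in every setting, whereas Aldh7a1, Aldh1l1, Ces1f and Ces2c cross 0. Settings that change only the probe filter or the variance estimate leave the difference unchanged.

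Other genes of the same pathways were described by lists. Of the 25 tested genes of retinoid handling and signalling 1 passed the unadjusted limma threshold, with a higher signal in Selenbp1-KO, and the median difference was 0.031. Of 22 other carbonyl, alcohol and amine oxidoreductases none passed the unadjusted limma threshold (median 0.040). Of 20 other ester and lipid hydrolases 1 passed, Pnpla3, a lipase of lipid droplets (0.73, limma adjusted p 0.279), which was well above background on 1 WT and 3 Selenbp1-KO arrays, and the median was 0.033. Of 16 enzymes that form or use epoxides none passed (median 0.11). The median over all genes was 0.13, and over the 56 member genes it was 0.077.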

How the data were processed

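Kidney RNA of 3 WT and 3 Selenbp1-KO mice was hybridised by the authors to 1-colour Agilent arrays (62976 spots, all on 1 slide). The deposited scanner files hold processed intensities, background-subtracted by Feature Extraction (9.5.1.1 in the submitters' notes, 10.7.1.1 in the file headers) with mm9 probe positions, and detection p-values per spot, also deposited. A deposited table of quantile normalized intensities served as an alternative. Labels and methods name different RNA extraction kits. WT 2 and 3 lie in slide row 1, and WT 4 and all Selenbp1-KO arrays in row 2.

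Here log2 intensity minus the 75th percentile of each array was used, outlier spots were dropped, spots of a probe were averaged, and the 56097 probes detected (p below 0.05) on at least 1 array were fitted with limma 3.58.1 in R 4.3.3, which was tested on simulated data. The threshold was the unadjusted p of 0.05 of the methods, with Benjamini-Hochberg adjustment over all probes tested. A gene was read by its brightest probe over the 6 arrays. RefSeq accessions (GRCm38.p6) named 32994 probes, 74 of the 91 member probes among them, and the array's own names were used otherwise. Signals of different probes cannot be compared, and the number of arrays limits the precision; an exact permutation test of 3 against 3 arrays cannot give a p below 0.10. Named genes were those past the threshold and the 2 brightest of each family, with others where probes of a gene differed or a subgroup was described. Members, lists and alternatives were chosen with earlier results of these data known. Results that name items withheld for evaluation are not reported here.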

Additional observations from a re-analysis of the deposited data

How the results depend on the processing

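All 19 alternatives kept the direction of Aldh1b1, Aldh3b3, Adh1, Adh5, Ephx1, Ephx2, Fmo1 and Fmo2. Those that change only the probe filter or the variance estimate leave each difference as it was, so no sign could turn there. The 2 member genes and 4 member probes past the unadjusted threshold became 5 and 9 with normexp background correction, 8 and 13 after quantile normalization (2 genes higher and 6 lower, 14.3% of the members against 9.10% of all genes), 5 and 11 with median scaling, 7 and 12 in the authors' values (2 genes higher and 5 lower, 12.5% against 9.07%), and 6 and 8 with limma's trend and robust options; with the slide row as a block 1 gene passed. Over all genes 2964 were called, 4384 with normexp, 9756 with median scaling, 5214 with trend and robust options, and from 1294 (without WT 2) to 11812 (without WT 4) with 1 array left out. With 1 array left out the members called ranged from 1 (without WT 2) to 8 (without WT 4), and the probes from 1 to 17 on the same arrays. Without WT 4, Adh6-ps1, Ces1a, Ces4a and Ces5a, all at the substitute level, had a limma adjusted p of 0.049. The median difference over member genes, 0.077 as reported, was -0.025 after quantile normalization, -0.011 in the authors' values, -0.014 over genes well above background, 0.033 with the slide row as a block, and 0.024 to 0.10 with 1 array left out. The sign turned for Ces1f after quantile normalization (-0.00095) and with the slide row as a block (-0.12), for Ces2c after quantile normalization (-0.033) and in the authors' values (-0.0093), for Aldh1l1 with the slide row as a block (0.031), and for Aldh7a1 with 1 array left out, where it ranged from -0.079 to 0.052 and was above 0 without WT 4 or Selenbp1-KO 2. The causes were not tested. The replicate numbers 2 and 3 occur in both genotypes, and the deviations of same-numbered arrays correlated at 0.17 and 0.19, beside 0.19 for WT 3 with Selenbp1-KO 1 and 0.16 for WT 4 with Selenbp1-KO 2. Only 2 numbers are shared and no label ties them to a litter or day, so they were not taken as pairs; with a replicate block, 9 member genes (16.1%, against 33.2% of all genes) and 17 member probes passed, 8 of these genes were not well above background, neither Aldh1b1 (p 0.227) nor Aldh3b3 (p 0.161, both limma, unadjusted) was among them, the median difference was 0.13, Aldh7a1 turned to 0.065, and 12286 of all genes were called. Probes under the background level limit what can be said of 14 member genes.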
